A study of Mus musculus with 24 samples.

Results

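The class III and class Ib region of the mouse major histocompatibility complex (MHC) was followed in pancreatic islets through 147 array probes for 102 gene names. Its members were the noncontrol probes of a 3 Mb window of chromosome 17 that were well above background in a channel on 6 or more of 24 arrays. The first and last of them lie at chr17:34596840-34596899 and chr17:37473542-37473601 (mm9). Of 224 noncontrol probes in that window, 16 belonged to C2, Cfb, C4b, Hspa1a, Hspa1b, Tnf, Lta, Ltb, Aif1, H2-D1 and Ubd and were left out, and 61 others were too dim. Across the array, 25931 of 41174 noncontrol probes passed the same brightness rule. Egfl8 stood just inside it with 6 arrays, and Ager, H2-T3 and a second Lst1 probe stood just outside with 5 arrays each. By symbol and place the members were 18 probes of 10 class I genes, 71 probes of 51 class III names, and 58 probes of 41 other names among or beyond the class I genes, called framework genes here.

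Each array compared the islet RNA of 1 female NOD/LtJ (NOD) mouse, labelled with Cy5, with a pool of islet RNA from 6 age-matched female NOD.B10Sn-H2b/J (NOD.B10) mice, labelled with Cy3. There were 6 NOD mice at each of 4 ages: 10 days, 4 weeks, 12 weeks and 20 weeks. NOD mice develop autoimmune diabetes and carry the MHC haplotype H2g7, whereas NOD.B10 mice carry H2b on the NOD background. RNA input was 300 ng per mouse, and the pool was an RNA pool, not a set of single mice. Values are log2(NOD/pool), above 0 where NOD islets had more RNA. A call required an adjusted p under 0.05 (limma, Benjamini-Hochberg over all 25931 probes) together with a change of 2-fold or more.

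The MHC is a gene-dense stretch in which antigen-presenting molecules lie beside genes of unrelated roles. Class I molecules display peptides on the cell surface with beta-2 microglobulin. The class Ib members (Q, T and M genes of the mouse) are less polymorphic than the classical ones and include ligands of natural killer and unconventional T cells. The class III stretch holds complement, cytokine, transcription, RNA-processing and metabolic genes. Interferons raise many class I genes, and infiltrating leukocytes express them strongly.

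The window lies within the MHC, at which the strains differ by haplotype; how far the H2b segment of the control strain reaches was not tested. The array's probes were placed on mm9, the genome of the C57BL/6J strain, which is itself H2b. The strain from which the probe sequences were taken is not given in the sources used here, and whether sequence differences within a probe changed its binding was not tested.

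Probes for 3 genes carry much of what follows, and their 60-base sequences are shown because different probes of a gene gave the same value (D17H6S56E-5) or different ones (Neu1, H2-T22). Sequences run 5′ to 3′ as given in the array files, with mm9 positions. D17H6S56E-5, also named G7e, is read by probes at chr17:35134128-35134187 and chr17:35134653-35134712, both on the minus strand.
D17H6S56E-5 A_51_P134468: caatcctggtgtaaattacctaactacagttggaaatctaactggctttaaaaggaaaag
D17H6S56E-5 A_52_P416756: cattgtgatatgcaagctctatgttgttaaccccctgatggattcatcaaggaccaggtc
Neu1 is read by probes at chr17:35071709-35071768 and chr17:35072105-35072164 on the plus strand. A probe at chr17:35071842-35071901 is named Neu1 by symbol only and lies on the minus strand.
Neu1 A_51_P428035: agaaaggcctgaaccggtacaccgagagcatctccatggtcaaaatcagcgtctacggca
Neu1 A_52_P170857: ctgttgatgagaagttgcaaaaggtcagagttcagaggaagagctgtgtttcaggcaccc
Neu1 A_52_P58524: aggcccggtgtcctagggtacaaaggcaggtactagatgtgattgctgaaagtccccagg
H2-T22 is read by minus-strand probes at chr17:36175398-36175457, chr17:36177222-36177429 and chr17:36178425-36178484. The second covers more genome than its 60 bases. The files list H2-T10 beside H2-T22 for the first, so its value may combine these relatives.
H2-T22 A_51_P432538: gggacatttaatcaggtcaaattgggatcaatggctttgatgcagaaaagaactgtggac
H2-T22 A_51_P432544: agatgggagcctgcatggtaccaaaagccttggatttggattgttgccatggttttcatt
H2-T22 A_52_P197826: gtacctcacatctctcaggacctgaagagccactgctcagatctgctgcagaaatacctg

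All arrays had the same dye orientation, and the dyes are those the labels state. In ratios tested against 0, a dye effect on a probe therefore cannot be told apart from a strain difference. This holds also for probes with 1 sign or 1 call at all ages. A fixed dye effect drops out of contrasts between ages. The share of probes well above background was 43.2% to 65.4% in the NOD channel and 40.2% to 61.1% in the pool channel, lowest in the pool at 12 weeks (40.2% to 44.4%) and in NOD replicates 5 and 6 at 20 weeks (43.2% and 48.6%). Over all kept probes 9 pairs of arrays correlated below -0.3, the lowest at -0.52, and each joined a 10 day array to a 20 week or 4 week array. Mice of an age correlated between 0.19 and 0.90. Loess sets the median ratio of all probes near 0. Centring each array on its median instead put that median at 0.34, -0.12, 0.39 and -0.16 from the youngest to the oldest age, so directions below are relative to the loess-normalized median probe. The pool was read as 1 control sample per age, so tests against 0 carry no spread of the controls, and contrasts of 2 ages also hold whatever set their pools apart. Of 10 listed beta cell markers, 8 had a kept probe under the listed name, and Iapp and Ero1lb had none. The NOD signals of Ins1, Ins2, Slc2a2, Slc30a8, G6pc2, Nkx6-1 and Pdx1 were well above background on 24 of 24 arrays.

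Most members stayed near 0. From the youngest to the oldest age their median ratio was -0.04, -0.09, 0.04 and -0.05. At 10 days 8 members were called, against 3.24% of all probes: 1 was higher and 7 were lower, against 1.41% and 1.84%. At 4 weeks 10 were called, against 2.29% of all probes: 2 were higher and 8 lower, against 1.57% and 0.717%. At 12 weeks 8 were called, against 2.84%: 5 were higher and 3 lower, against 1.7% and 1.15%. At 20 weeks 13 were called, against 4.21%: 9 were higher and 4 lower, against 3.23% and 0.98%. The members called lower were 5.44% of 147 at 4 weeks and 2.72% at 20 weeks. By the F test 111 of 147 members (75.5%) differed among the 4 ages, a share close to the 73.1% of all probes.

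**Figure D1:**
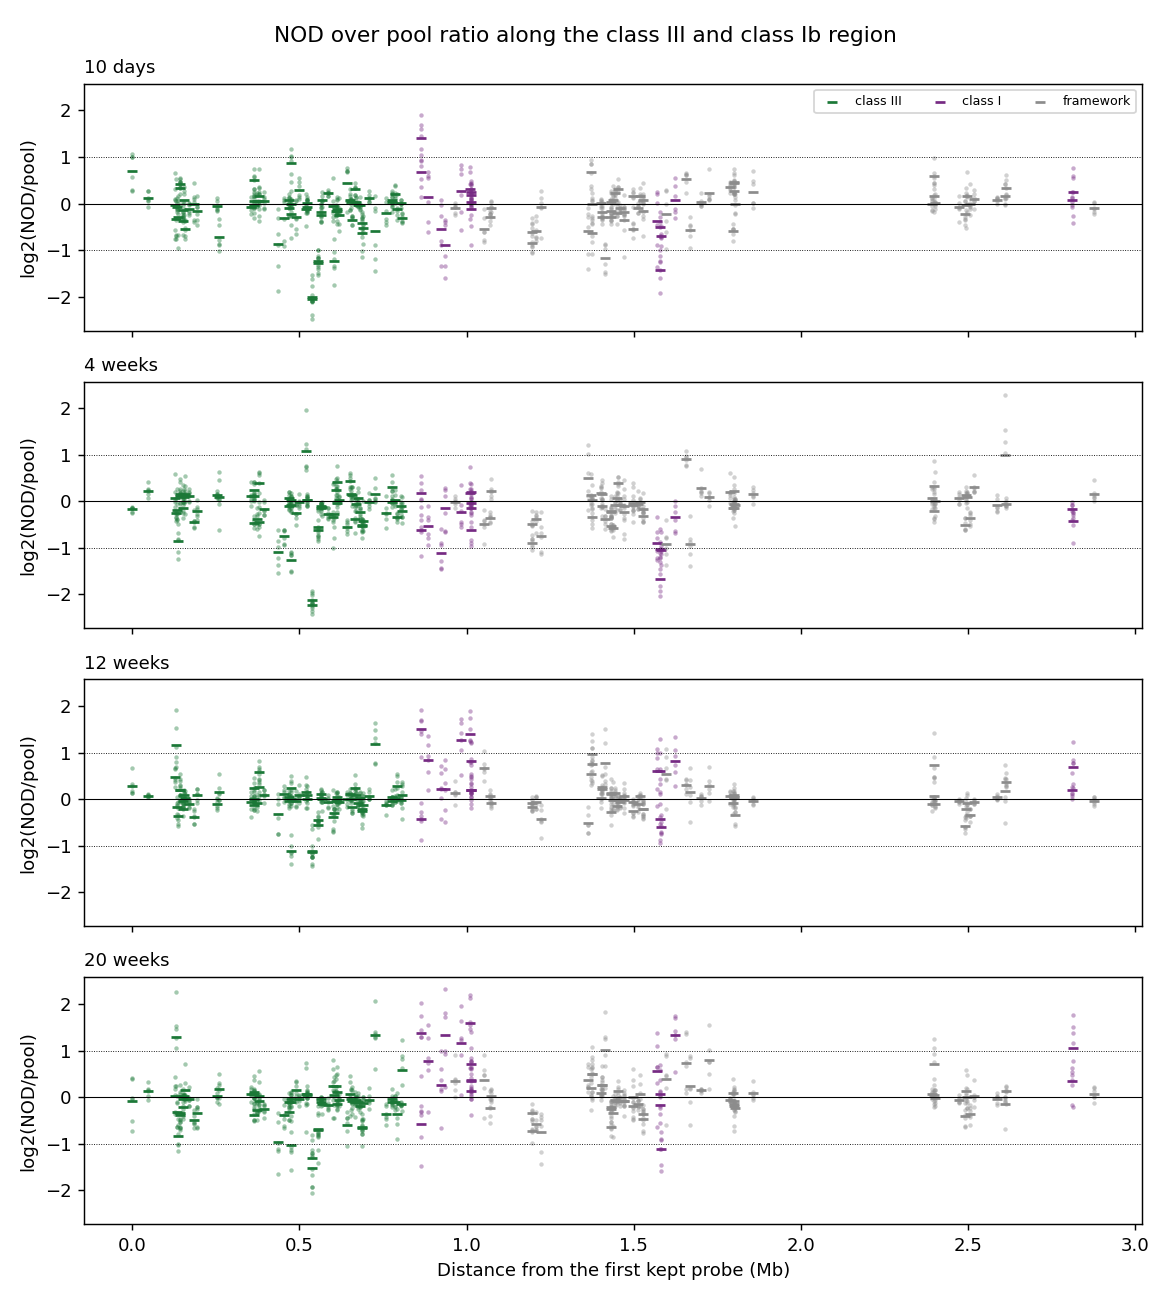
Log2(NOD/pool) of the 147 kept probes at each age, by distance in Mb from the first kept probe. Dots are single mice (6 per age), horizontal ticks are their means, colours mark class III, class I and framework genes, and dotted lines mark a 2-fold difference. The lowest class III ticks, near 0.54 Mb at every age, are the probes of D17H6S56E-5.

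The class III gene D17H6S56E-5 was lower in NOD islets than in the pool in 24 of 24 mice by both of its probes. Through probe A_51_P134468 its lowest, median and highest ratio was -2.49, -2.07 and -1.53 at 10 days and -2.42, -2.09 and -1.92 at 4 weeks. The corresponding values were -1.42, -1.20 and -0.64 at 12 weeks and -1.93, -1.24 and -0.82 at 20 weeks. Every mouse lay below 0, and the mice of the younger ages lay lower than those of 12 weeks without overlap. That order of ages was not kept with the scanner software's own signals (next paragraph). Through probe A_52_P416756 the means were -2.05 ± 0.26, -2.24 ± 0.08, -1.10 ± 0.30 and -1.52 ± 0.40 (SD, n = 6) from the youngest to the oldest age. Over the 4 ages the means of the 2 probes were -1.64 ± 0.06 and -1.73 ± 0.06 (SE), with limma adjusted p of 2.21e-15 and 1.35e-16. They were the only members called in the mean of the 4 ages, against 0.578% of all probes called there and 0.116% called lower.

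The NOD signal of D17H6S56E-5 stayed close to 1 dim level while that of the pool moved. On the normalized log2 intensity scale, probe A_51_P134468 read 6.71, 6.66, 6.59 and 6.56 in NOD mice from 10 days to 20 weeks, against 8.72, 8.77, 7.72 and 7.87 in the pools. Its NOD signal was well above background on 24 of 24 arrays, and that of the other probe on 23 of 24. With the scanner software's own signals, which replace both the background step and loess, A_51_P134468 read -2.99, -3.35, -3.19 and -2.76 from the youngest to the oldest age. There the 12 week mean lay below that of 10 days, so the smaller difference at 12 weeks depended on the signals used. With a smaller normexp offset of 16 and loess kept it read -2.44, -2.56, -1.69 and -1.74. Median centring in place of loess gave -1.39, -2.39, -0.70 and -1.61, so that the call was lost at 12 weeks and the direction was kept.

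A call in the same direction at all 4 ages was rare. Of all probes tested 6 had one (0.0231%), each of them lower in NOD, and 2 of these were the D17H6S56E-5 probes. Another 2 lay beside the region on chromosome 17, in Zfp871 (32.911 Mb, -1.43 in the mean of the 4 ages) and in the classical class I gene H2-K1 (34.136 Mb, -1.97). The remaining probes were in Ntrk2 on chromosome 13 (-1.27) and Sdc2 on chromosome 15 (-1.78). The H2-K1 call holds for that probe (A_52_P50496) alone. The brightest H2-K1 probe read -0.64, -1.14, 0.52 and 1.00 from the youngest to the oldest age. Under median centring no probe was called at all 4 ages, and with the scanner's signals 40 probes were, 5 of them in the region.

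Members with 1 sign in every mouse made a wider set. Ratios were below 0 on 24 of 24 arrays for 6 members and above 0 for 2, together 5.44% of 147, against 3.22% of all probes. Below 0 throughout were, beside D17H6S56E-5, both probes of Vars, which encodes the cytosolic valyl-tRNA synthetase, 1 probe of Vars2, its mitochondrial counterpart, and 1 probe of H2-T22. These genes were picked out after their values were seen.

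Vars read -1.53, -1.21 and -0.99 (lowest, median and highest) at 10 days through probe A_52_P370560, and -1.49, -1.27 and -1.01 through A_51_P203501. Later means of the first probe were -0.61 ± 0.24 at 4 weeks, -0.55 ± 0.16 at 12 weeks and -0.70 ± 0.48 at 20 weeks (SD, n = 6). Both probes were called lower at 10 days (adjusted p = 9.5e-09 and 1.66e-10), and at the later ages they stayed short of the 2-fold floor. Both 10 day calls were lost under median centring (-0.52 and -0.55), where the 12 week means lay above 0 (0.22 and 0.33). Vars2 read -0.84 ± 0.25, -0.89 ± 0.12, -0.17 ± 0.07 and -0.72 ± 0.16 from the youngest to the oldest age through probe A_52_P185639, and was not called at any age. Above 0 throughout were a dim H2-Q10 probe (mean of the 4 ages 0.19) and LOC100505332 (0.62), whose pool signal was well above background on no array.

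**Figure D2:**
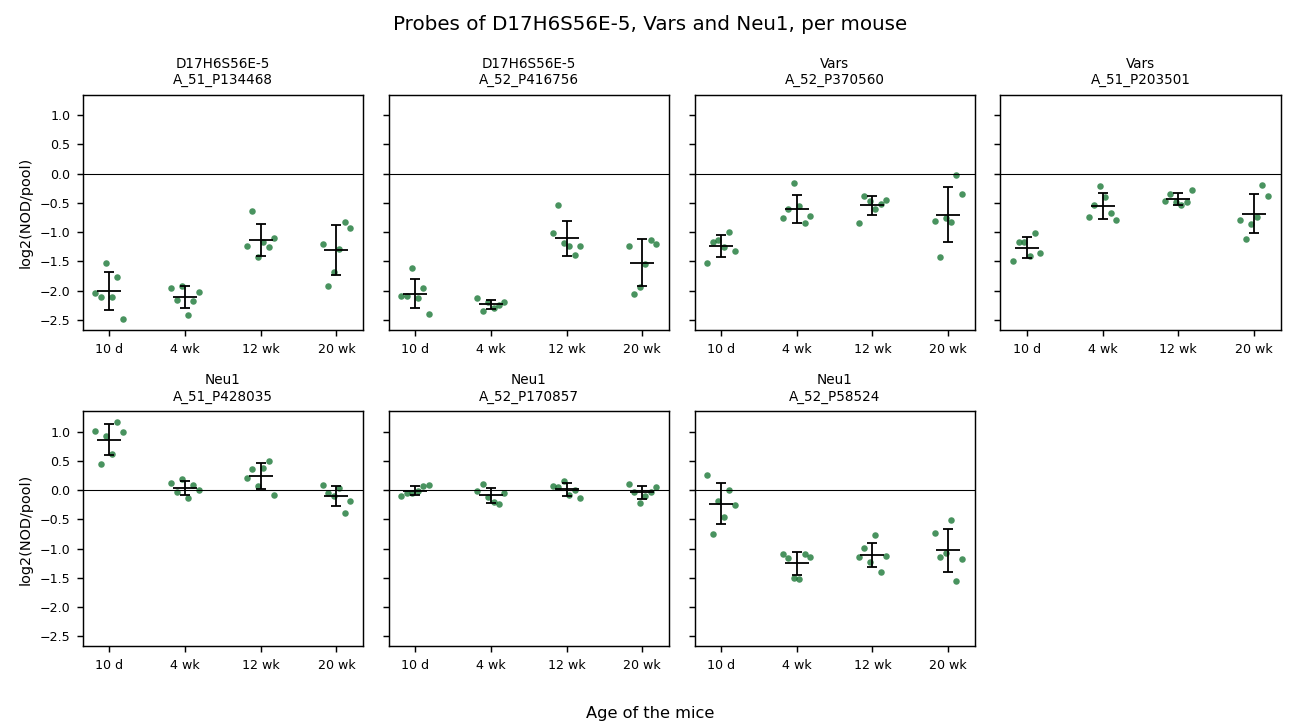
Log2(NOD/pool) per mouse (dots, 6 per age) at each age for the probes of D17H6S56E-5, Vars and Neu1, with mean and SD. All mice lie below 0 for D17H6S56E-5 and for Vars (the Vars means of 12 weeks lie above 0 under median centring), and the Neu1 probes differ in course.

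Over the 33 names with 2 or more kept probes (78 probes), the probe means over the 4 ages differed by a median of 0.18, by at least 0.5 in 5 genes and by at least 1 in Neu1 alone. The 5 genes were Neu1, H2-Q10, H2-T22, H2-Q2 and Trim26. The difference was 0.04 for Vars and 0.09 for D17H6S56E-5. The spans of other genes are not all separate measurements: 5 pairs of probes of 1 gene share runs of 22 to 55 bases (Sapcd1, Slc44a4, Lsm2, Nrm and Ly6g6d), and the offset draws the ratios of dim probes towards 0.

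Neu1 encodes the lysosomal sialidase, and its probes disagreed on whether NOD islets had less of it. Probe A_51_P428035 read 0.46, 0.95 and 1.17 at 10 days (lowest, median and highest), and its means at the later ages were 0.04, 0.24 and -0.10. Probe A_52_P58524 read -0.74, -0.22 and 0.26 at 10 days and -1.52, -1.15 and -1.09 at 4 weeks. At 12 and 20 weeks its means were -1.11 ± 0.21 and -1.03 ± 0.37 (SD, n = 6), and it was called lower at these 3 later ages (adjusted p = 3.03e-08, 1.34e-07 and 2e-07). The first probe lay above the second on 24 of 24 arrays, by 1.17 in the mean of the 4 ages. The minus-strand probe stayed between -0.23 and 0.16 in all mice and was near background. At 12 weeks the call on A_52_P58524 rested on the scaling, with a ratio of 0.01 under median centring, while the 20 week ratio was -1.65 there. Without replicates 5 and 6 its 20 week ratio was -0.86, short of the fold floor.

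Trim26, a ubiquitin ligase gene, had the other wide span outside class I, with 1 probe at 0.59 in the mean of the 4 ages and the others at 0.02 and 0.005.

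Between 20 and 4 weeks 19 members of the whole region were called, against 3.95% of all probes. Of 18 class I probes 12 rose between these ages and none fell, against 3.01% of all probes that rose and 0.937% that fell. The median change over the 18 probes was 1.33, against -0.01 over all probes. The count depended on the scaling: 1 of 18 was called under median centring and 14 with the scanner's signals, while the median change stayed between 0.99 and 1.59 under the alternatives tried. In such whole-islet RNA, more cells of a type and more RNA per cell cannot be told apart. The ages compared share no slide, so slide and age cannot be separated within a slide.

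Among the Q genes, H2-Q7 of the Qa-2 family is listed in the files together with H2-Q9. It read 0.04, 1.24 and 1.96 at 20 weeks and -0.54, -0.32 and 0.36 at 4 weeks (lowest, median and highest). The ages overlapped by replicate 5 of 20 weeks alone, the weakest NOD sample, which also differed in cell type markers (below). The change was 1.40 ± 0.28 (SE, adjusted p = 0.000883). H2-Q8 rose most of the class I probes against the youngest mice, with 0.22, 1.36 and 2.34 at 20 weeks and -1.59, -0.80 and -0.35 at 10 days. These groups did not overlap, and the change of 2.22 ± 0.31 had an adjusted p of 3.5e-06, but it was 1.04 and lost its call under median centring (adjusted p = 0.0827). H2-Q4 read 0.27 ± 0.55 at 20 weeks and was called lower in NOD at 4 weeks (-1.10 ± 0.34, SD, n = 6 each, adjusted p = 4.41e-05). On the intensity scale its NOD signal was 13.38 at 20 weeks and 11.18 at 4 weeks, and the pools read 13.11 and 12.28 at those ages, so the signal was brighter at 20 weeks in both strains.

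H2-Q10 encodes a secreted class I protein made mainly by liver, and 5 probes carried its name. Probe A_52_P428354, for which the files list H2-Q10 alone, read 0.63, 1.59 and 2.20 at 20 weeks and -0.15, 0.12 and 0.73 at 4 weeks (lowest, median and highest). The change between them was 1.42 ± 0.24 (adjusted p = 0.000194), with replicate 5 of 20 weeks inside the range of the 4 week mice. Probe A_51_P496997, which the files tie to H2-D1, H2-Q1 and H2-Q6 as well, changed by 1.34 ± 0.24. The other 3 probes were not called and changed by -0.06, 0.41 and 0.49.

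H2-Q2 was read by 2 probes that changed alike and differed in level. Their changes from 4 to 20 weeks were 1.19 ± 0.22 and 1.32 ± 0.27 (SE), and the first probe lay above the second on 24 of 24 arrays, by 0.63 in the mean of the 4 ages. Through that probe H2-Q2 was higher in NOD at 12 weeks (1.52 ± 0.35, adjusted p = 1.07e-07) and at 20 weeks (1.38 ± 0.54, adjusted p = 2.07e-07). Under median centring these ratios were 2.63 and 0.77, and the 20 week call was lost.

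Among the T and M genes, H2-T23 encodes Qa-1, a ligand of the inhibitory receptor CD94/NKG2A. It read -0.64, 0.65 and 1.38 at 20 weeks and -1.26, -0.93 and -0.34 at 4 weeks, with replicate 5 of 20 weeks among the younger mice. Its change was 1.46 ± 0.31 (adjusted p = 0.00134). H2-M3, which presents N-formylated peptides, read -0.20, 1.27 and 1.76 at 20 weeks and -0.89, -0.33 and -0.23 at 4 weeks through A_51_P469968, without overlap, and its dimmer second probe changed by 0.51. H2-Bl, a transcribed pseudogene in RefSeq, read 0.54, 1.38 and 1.76 at 20 weeks and -0.67, -0.32 and 0.001 at 4 weeks. These groups were also apart, and the change of 1.67 ± 0.20 (adjusted p = 4.22e-06) exceeded those of the other class I probes.

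The H2-T22 probes, shown above, did not give the same course. H2-T22 is a class Ib ligand of some gamma delta T cells. A_51_P432538 read -1.93, -1.35 and -1.12 at 10 days and -2.03, -1.69 and -1.22 at 4 weeks, when all mice were below 0, and averaged -0.41 ± 0.48 at 12 weeks and -0.16 ± 0.57 at 20 weeks (SD, n = 6). A_51_P432544 followed it at a higher level, with 0.07 ± 0.44 at 20 weeks and -1.02 ± 0.26 at 4 weeks. A_52_P197826 stayed below 0 in 24 of 24 mice and was called lower both at 20 weeks (-1.12 ± 0.34, adjusted p = 3.02e-09) and at 4 weeks (-1.03 ± 0.24, adjusted p = 1.96e-08), with a difference of -0.09 ± 0.13 (SE) between them. With the scanner's signals this probe read -2.65, -2.66, -2.0 and -2.51 from the youngest to the oldest age. The change of A_51_P432538 between 10 days and 20 weeks (1.27 ± 0.23) turned to -0.08 under median centring.

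H2-Q1 read 0.92, 1.52 and 1.91 at 10 days (lowest, median and highest), when it was the only member called higher in NOD (adjusted p = 4.67e-08). At 4, 12 and 20 weeks it averaged -0.61 ± 0.30, -0.42 ± 0.27 and -0.58 ± 0.49 (SD, n = 6), and every mouse of these ages lay below every 10 day mouse. The difference of 20 weeks from 10 days was -2.0 ± 0.21 (SE, adjusted p = 6.38e-08). Under median centring the 10 day ratio was 2.18 and this difference -3.37. On the slide that held both 10 day and 4 week arrays, the difference of 4 weeks from 10 days was -2.25. It was -2.03 over all mice, those of this slide included. The NOD signal of H2-Q1 was 10.50 at 4 weeks and 10.31 at 10 days on the intensity scale, and the pools read 11.11 and 8.89, so the NOD signal differed less between these ages than the pool signal.

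**Figure D3:**
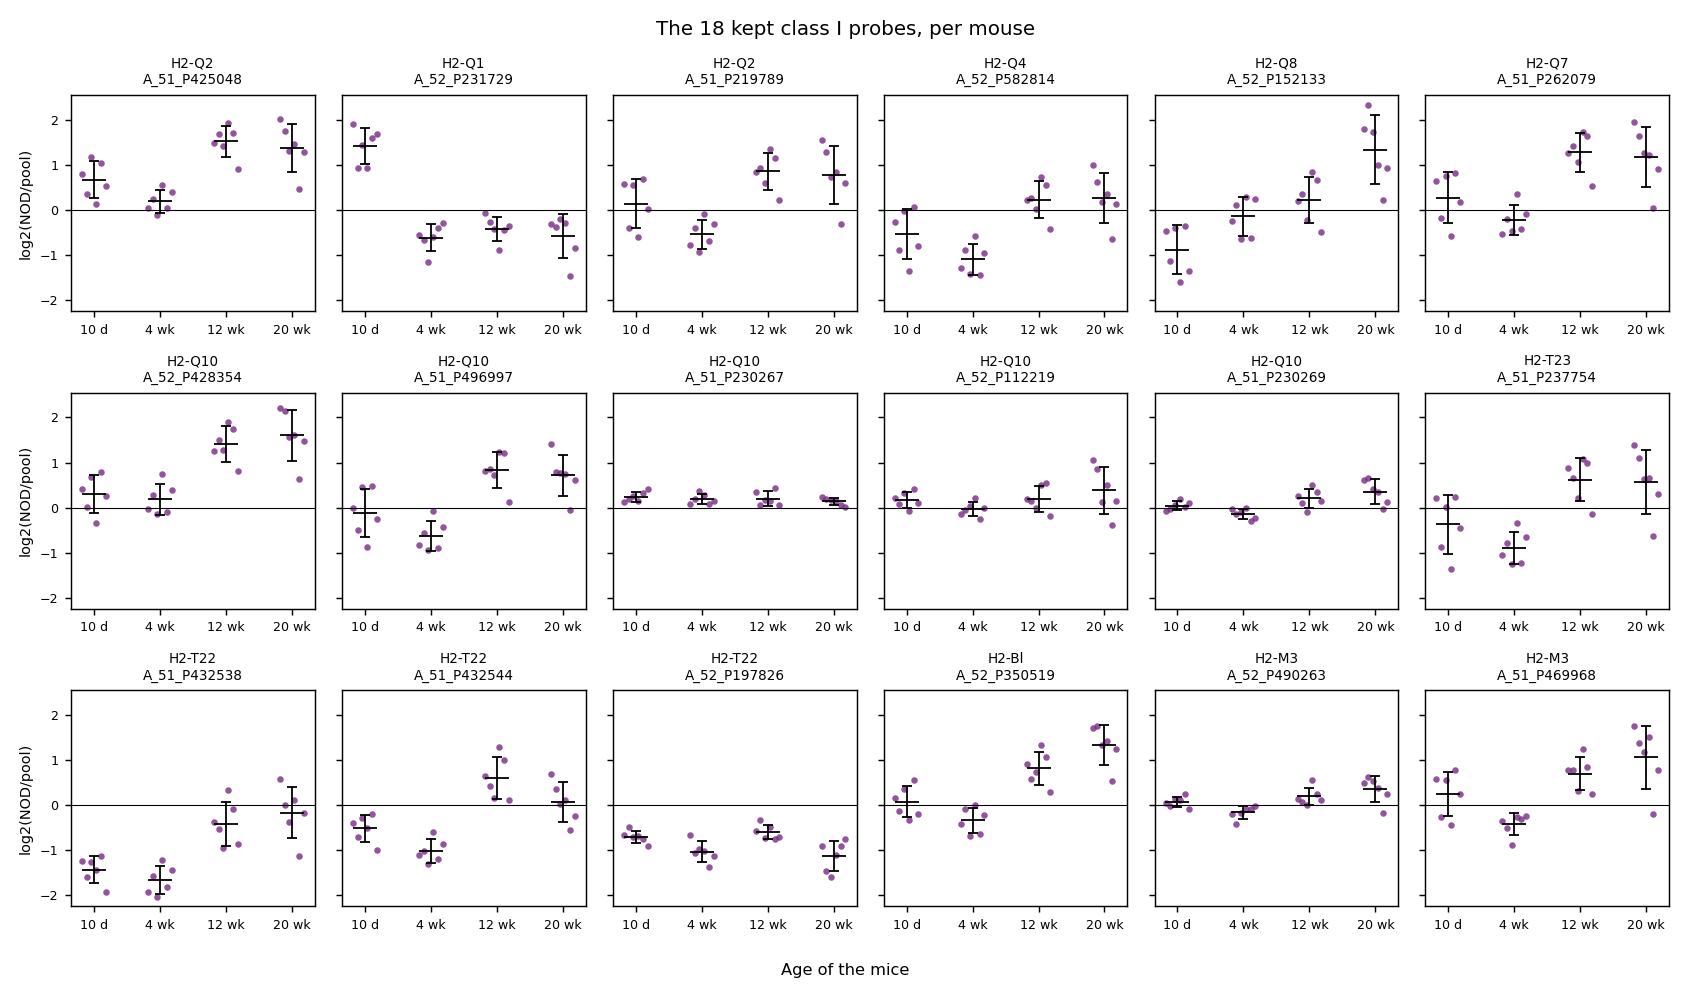
Log2(NOD/pool) per mouse (dots, 6 per age) at each age for the 18 class I probes in order of position, with mean and SD. Most probes are higher at 12 and 20 weeks than at 4 weeks, H2-Q1 is high at 10 days alone, and H2-T22 A_52_P197826 stays below 0.

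The class I probes are not fully separate measurements, since class I genes resemble each other. The H2-Q7 probe (chr17:35579687-35579918, plus strand) and the H2-T23 probe (chr17:36167338-36167574, minus strand) share a run of 28 bases, in capitals, and match at 50 of 59 aligned bases.
H2-Q7 A_51_P262079: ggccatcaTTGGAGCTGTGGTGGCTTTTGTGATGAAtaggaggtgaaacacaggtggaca
H2-T23 A_51_P237754: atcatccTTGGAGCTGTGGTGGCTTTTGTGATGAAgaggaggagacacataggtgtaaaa
This was the only pair of kept class I probes to share 15 or more bases. Only the kept probes of the region were compared, and only with each other. Runs shorter than 15 bases, other probes of the array and whole transcripts were not searched. Binding of a probe to the RNA of other genes was therefore not tested.

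Against 10 days, the class I change at 20 weeks was smaller and less certain. Only 4 of 18 probes rose (H2-Q8, H2-Q10 A_52_P428354, H2-T22 A_51_P432538 and H2-Bl) and H2-Q1 fell, against 6.28% and 4.08% of all probes. Under median centring none of the 4 kept its call, and H2-Q1 did. The median change over the 18 probes was 0.76, and it turned to -0.46 under median centring, where the median of all probes was -0.53. Without the 20 week replicates 5 and 6, which were dim and also differed in cell type markers (below), 9 of 18 probes rose.

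The machinery of class I presentation encoded outside the window moved in part with these genes. Of 16 genes listed for it, each read by its brightest probe, 5 rose from 4 to 20 weeks and none fell. Over all probes 3.01% rose and 0.937% fell between these ages. The median change of the 16 was 0.73. Not all of them lie far from the window: H2-K1 is at 34.136 Mb, just before it. B2m, the beta-2 microglobulin gene, read 2.90 ± 0.65 at 20 weeks and 0.53 in the mean of 4 weeks. The immunoproteasome genes Psmb8 and Psmb9 read 2.24 ± 0.68 and 1.74 ± 0.52 at 20 weeks, and the peptide transporter gene Tap1 read 1.63 ± 0.54 (SD, n = 6). Their means at 4 weeks were already above 0, at 0.84, 0.87 and 0.37. H2-K1 read 1.00 ± 0.73 at 20 weeks and -1.14 in the mean of 4 weeks. The endoplasmic reticulum chaperones Calr and Pdia3 read -0.63 ± 0.24 and -0.59 ± 0.31 and were not called.

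Markers of several cell types moved with the class I genes, and their part in the result was not tested. The mean of 10 T cell genes was 1.57 to 2.88 in mice of 20 weeks and 0.13 to 0.46 in those of 4 weeks, and 8 of the 10 rose. Of 10 listed macrophage and dendritic cell names, of which Emr1 and Adgre1 are the same gene, 8 were measured. Their mean was 0.51 to 1.52 at 20 weeks and -0.45 to 0.30 at 4 weeks, and 5 rose. Of 6 B cell genes 5 rose. The mean of 8 beta cell genes was -3.42 to -0.68 at 20 weeks and -1.38 to -0.59 at 4 weeks. Acinar genes were apart at the younger age: the mean of 10 was -2.45 to 2.02 at 20 weeks and 1.02 to 1.80 at 4 weeks, when all 10 were called higher in NOD. Replicates 5 and 6 of 20 weeks had the highest acinar means of that age (2.02 and 1.49). They also had its lowest beta cell means (-3.42 and -1.66). Whether signal strength or this make-up bears on their class I ratios was not tested.

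The promoters of class I members were searched for the letters GAAANNGAAA on either strand, a pattern found in interferon-stimulated response elements. RefSeq promoters (GRCm38.p6, 300 bases around each start) were held for 7 of the 10 class I genes, and those of H2-T23 and H2-T22 contained it, against 3.44% of 32851 promoters. Over all members 5 of 100 promoters (5.0%) contained it, the others being those of D17H6S56E-5, Gm11127 and Trim26. These positions are on GRCm38.p6 and do not compare with the mm9 ones above. They are shown as the class I promoters with a match, in capitals; H2-T23 rose between 4 and 20 weeks through its probe and H2-T22 through 2 of 3, the third changing by -0.09. They lie for H2-T23 at chr17:36032652-36032951 and for H2-T22 at chr17:36042693-36042992, both on the minus strand.
H2-T23 promoter: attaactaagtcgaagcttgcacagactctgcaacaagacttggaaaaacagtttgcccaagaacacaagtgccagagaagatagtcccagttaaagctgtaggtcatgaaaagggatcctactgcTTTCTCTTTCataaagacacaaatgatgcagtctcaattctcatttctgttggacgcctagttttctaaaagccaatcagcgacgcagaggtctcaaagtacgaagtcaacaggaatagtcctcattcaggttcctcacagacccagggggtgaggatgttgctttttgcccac
H2-T22 promoter: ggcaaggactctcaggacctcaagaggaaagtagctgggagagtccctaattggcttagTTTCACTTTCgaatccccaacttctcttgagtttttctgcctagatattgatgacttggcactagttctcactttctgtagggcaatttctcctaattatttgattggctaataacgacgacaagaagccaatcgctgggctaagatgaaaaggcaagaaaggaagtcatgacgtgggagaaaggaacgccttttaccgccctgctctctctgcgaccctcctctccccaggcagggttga
A match describes the letters alone. The 5 class I promoters without these letters (H2-M3, H2-Q10, H2-Q2, H2-Q4 and H2-Q7) included that of H2-M3, whose change of 1.49 was close to the 1.46 of H2-T23.

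Of 8 probes for immune and Ly6 genes of class III, 2 rose from 10 days to 20 weeks, against 6.28% of all probes: Lst1, a leukocyte-specific transcript, and Gpsm3, a regulator of G-protein signalling in blood cells that was picked out after its values were seen. Lst1 read 0.61, 1.32 and 2.07 at 20 weeks and -1.44, -0.53 and 0.17 at 10 days (lowest, median and highest), without overlap. The change was 1.93 ± 0.25 (SE, adjusted p = 1.09e-06). Gpsm3 read 0.23, 1.37 and 2.26 at 20 weeks and -0.76, -0.52 and 0.53 at 10 days, where the highest young mouse passed the lowest older one. Its change was 1.63 ± 0.27 (adjusted p = 2.36e-05). Both genes were already higher in NOD at 12 weeks, by 1.20 ± 0.36 and 1.16 ± 0.47 (SD, n = 6). The remaining 6 probes of the group were not called in any comparison.

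Ppp1r18, which encodes an actin-binding regulatory subunit of protein phosphatase 1, changed most among the framework genes. It was higher in NOD at 20 weeks (0.20, 1.08 and 1.83, adjusted p = 1.24e-05) and lower at 10 days (-1.52, -1.14 and -0.87, adjusted p = 1.68e-06). Every 20 week mouse lay above every 10 day mouse, and the change was 2.20 ± 0.22 (adjusted p = 4.42e-08). Under median centring the change was 1.01 for Ppp1r18, 1.09 for Gpsm3 and 0.73 for Lst1, whose call was lost. There Ppp1r18 lost its calls at 20 weeks (0.59) and 10 days (-0.42), Lst1 lost that at 20 weeks (0.84), and the 12 week ratios of Lst1 and Gpsm3 were 2.23 and 1.87. The T cell list averaged 1.57 to 2.88 in the 20 week mice and -0.69 to 1.13 in the 10 day mice, and the macrophage list 0.51 to 1.52 and -0.78 to 0.48 in those groups, and their part in these changes was not tested. The mean of 6 stellate cell and fibroblast genes also moved, with 0.56 to 1.83 at 20 weeks and -2.93 to -0.92 at 10 days, and so did that of 8 beta cell genes, with -3.42 to -0.68 and 0.39 to 1.87 in those groups.

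**Figure D4:**
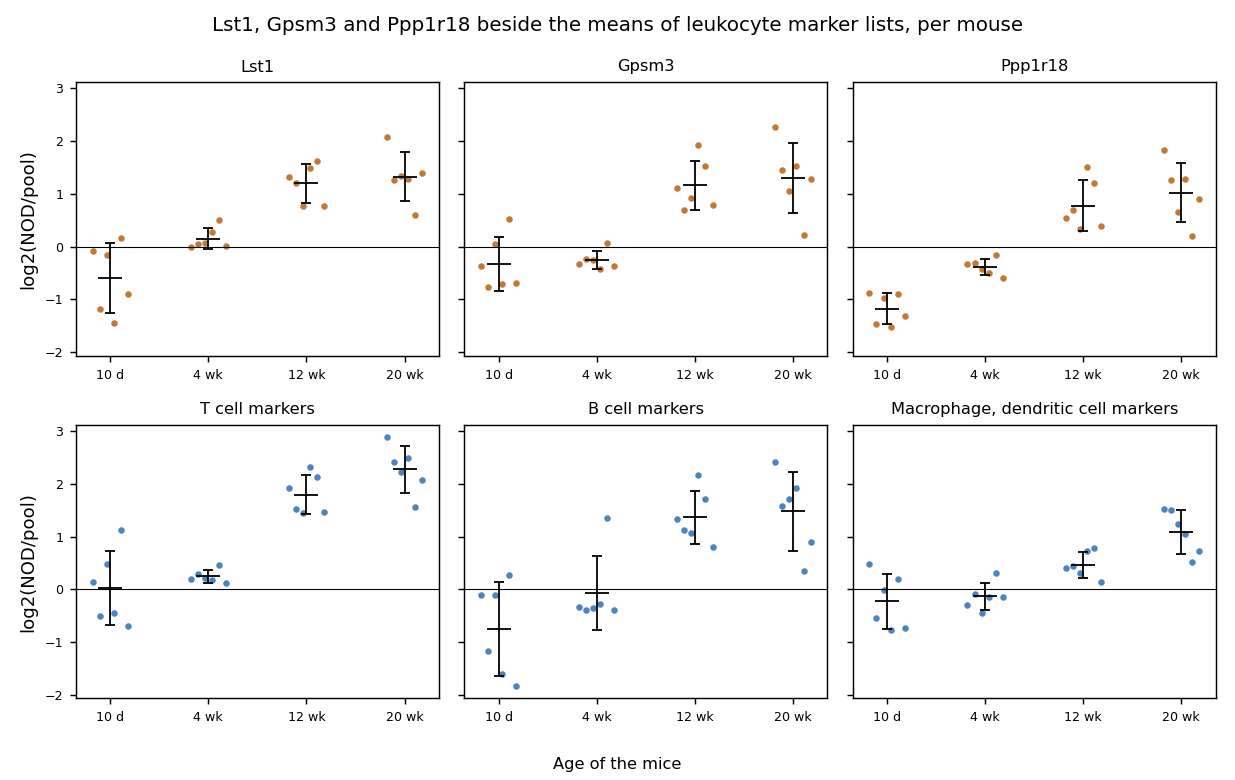
Log2(NOD/pool) per mouse (dots, 6 per age) at each age for Lst1, Gpsm3 and Ppp1r18 (top) and for the mean of the T cell, B cell, and macrophage and dendritic cell marker lists (bottom), with mean and SD. In all 6 panels the 20 week mean lies above the 10 day mean.

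Over the whole region 11 of 147 members were called between 20 weeks and 10 days (7.48%), against 10.4% of all probes. Of the 11, 7 had groups of mice that did not overlap (4.76% of members), against 8.29% of all probes. Ddah2, a dimethylarginine dimethylaminohydrolase family gene, read -0.44, 0.07 and 0.44 at 20 weeks and was lower in NOD at 10 days, with -1.75, -1.27 and -0.76. The groups did not overlap, and the change was 1.30 ± 0.18 (adjusted p = 2.14e-06). Under median centring the change of Ddah2 was 0.04 (adjusted p = 0.915) and its 10 day ratio -0.47 (adjusted p = 0.0756), so that both calls were lost. Of the beta tubulin gene Tubb5, probe A_52_P163795 rose by 1.12 ± 0.17 (adjusted p = 7.9e-06), but its change was -0.23 under median centring, and the second probe changed by 0.52 ± 0.16. Abhd16a, a phospholipase gene, fell by 1.04 on the log2 scale (SE 0.14, adjusted p = 2.73e-06), and its change was -0.89 without replicates 5 and 6 of 20 weeks and -2.31 under median centring.

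At 4 weeks 3 further genes stood out singly, of which Hspa1l and Zbtb12 were picked out after their values were seen. Hspa1l, a heat shock protein gene of the Hsp70 family, was higher in NOD in 6 of 6 mice (0.67, 0.94 and 1.96, adjusted p = 8.79e-06) and read -0.12, 0.15 and 0.06 in the means of 10 days, 12 weeks and 20 weeks. Its 4 week call was lost under median centring (0.84). Gabbr1, a subunit gene of the GABA-B receptor, averaged 1.00 ± 0.93 at 4 weeks by probe A_51_P464900, while its other probes read -0.09 and -0.06. Its 4 week call was lost under median centring (0.81) and with the scanner's signals (0.96). The 4 mice on 1 slide (replicates 3 to 6) read 1.03 to 2.29 through that probe, and the 2 mice on another slide read -0.04 and -0.09. Zbtb12, a zinc finger gene, was lower in NOD at 4 weeks (-1.10 ± 0.34, adjusted p = 4.89e-05) and read below 0 in 22 of 24 mice.

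The other genes of class III and the framework with set roles mostly did not reach a call. A group of 21 probes was listed under RNA and protein handling, although it also held genes of other roles, such as the phospholipase gene Abhd16a. Of these, the probes of Vars at 10 days and of Abhd16a between ages were called and the rest were not. Of 12 probes for chromatin and transcription, that of Zbtb12 at 4 weeks was called. Not called at any age were the endothelial receptor gene Notch4 (0.48 at 12 weeks, its farthest mean from 0), both probes of the matrix gene Tnxb (-0.73 at 10 days), and the histone methyltransferase gene Ehmt2 (-0.75 at 4 weeks). The same held for Clic1, a chloride channel family gene (-0.38 at 12 weeks), and the collagen receptor gene Ddr1 (-0.75 at 20 weeks). The membrane scaffold gene Flot1 (0.67 at 10 days) and the early response gene Ier3 (-0.60 at 10 days) were not called either. Ager and the myelin gene Mog were too dim to be kept, as were 12 class I probes, those of H2-T24, H2-T3 and the H2-M10 family among them.

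Stretches of chromosome 17 on either side differed in how many probes rose. In the 3 Mb before the window, where the class II genes lie, 23 of 131 probes rose from 4 to 20 weeks (17.6%), against 17 of 147 members (11.6%) and 3.01% of all probes. In the 3 Mb after it 15 probes were kept and 1 rose. In the mean of the 4 ages, 10 of 131 probes of the first flank were higher in NOD and none of 147 members, against 0.463% of all probes. These shares describe the 3 stretches, and the difference between them was not tested. Of 17 members that rose from 4 to 20 weeks, 12 were class I probes, and the others were Gpsm3, Lst1, Ppp1r18, Gm11127 (1.30) and a clone-named probe (1.14), the last 2 picked out after their values were seen. Class I was set by symbol alone. Gm11127, which lies between the H2-T22 and H2-Bl probes, was therefore counted among the framework genes. Under median centring 2 of the 17 were called, H2-Bl and Gpsm3.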

How the data were processed

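Per the file headers, the authors deposited scanner files of 24 arrays made with Feature Extraction 10.7.3.1, with spot intensity, background and flags per channel, and a log10 ratio from the scanner software. The deposited value table holds log2 ratios. From the intensities, log2(NOD/pool) was computed in R 4.3.3 with limma 3.58.1 and statmod 1.5.0: normexp background correction (offset 50), loess within each array with control spots at weight 0, flagged outliers set to missing (1 ratio among the members), and spots of a probe averaged. The limma model had 1 mean for each age and covered 25931 probes, with Benjamini-Hochberg adjustment. The limma fit and the calls alone were tested on simulated ratios. Background correction, loess, flagging and averaging were not part of that test. The precision is limited by 6 mice per age.

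Probes were named by accession (119), symbol (11), older symbol (1) or the files alone (16). Members and lists were chosen with earlier results of these data known. Named whatever their result were the class I probes and 14 chosen genes. Also named were probes called at all 4 ages, the 6 highest and lowest called in the mean of the ages and in 20 weeks minus 10 days without overlap, and genes whose probes spanned 1 or more. Coordinates of probes are mm9. Other scalings, filters and blocks were tried as alternatives. Replicate numbers did not pair the mice.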

Additional observations from a re-analysis of the deposited data

Results flagged for a closer look

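Of 172 groups of 6 mice checked for the named probes, 5 (2.91%) held a mouse far from the other 5, where chance gives about 1 in 20. At 10 days replicate 4 read -0.73 for Ddr1, and the others lay between -0.09 and 0.27. At 4 weeks replicate 4 read 0.59 for Flot1, and the others lay between -0.07 and 0.14. At 12 weeks replicate 4 read 0.36 for Trim26 through A_52_P353038, with the others between -0.04 and 0.05. At 20 weeks replicate 2 read -0.68 for Gabbr1 through A_51_P464900 (others -0.1 to 0.01), and replicate 5 read -0.14 through A_52_P16232 (others 0.12 to 0.25).

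By limma's contrasts, with the 2-fold floor, 23 probes were called between 20 weeks and 10 days or between 20 and 4 weeks. In the first contrast 7.48% of members were called, against 10.4% of all probes. In the second 12.9% were called, against 3.95%. Probes called in both are listed under the first alone. By the F test, which has no such floor, 111 of 147 members differed among the ages, close to the share of all probes. Between 20 weeks and 10 days the differences were 1.63 for Gpsm3, 1.3 for Ddah2, -1.04 for Abhd16a, 1.93 for Lst1, -2 for H2-Q1 and 2.22 for H2-Q8. They were 1.3 for H2-Q10 A_52_P428354, 1.12 for Tubb5, 2.2 for Ppp1r18, 1.27 for H2-T22 A_51_P432538 and 1.26 for H2-Bl. Between 20 weeks and 4 weeks the differences were -1.02 for Hspa1l, 1.19 and 1.32 for the H2-Q2 probes, 1.37 for H2-Q4, 1.4 for H2-Q7 and 1.34 for H2-Q10 A_51_P496997. They were 1.46 for H2-T23, 1.09 for H2-T22 A_51_P432544, 1.3 for Gm11127, 1.14 for the clone-named probe, -1.15 for Gabbr1 and 1.49 for H2-M3.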

How the results depend on the processing

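The number of called members depended on the scaling and on the signals used, and the cause was not tested. The counts below are of members alone, without the shares of all probes called under each setting. They therefore do not set the members apart from the rest of the array. Under median centring the median ratio of all probes was 0.39 at 12 weeks. Their median change from 10 days to 20 weeks was -0.53 there. Under median centring 15 members were called at 10 days (13 higher, 2 lower), 36 at 12 weeks (36 higher), 4 in the mean of the ages, 47 between 20 weeks and 10 days (2 higher, 45 lower), 2 between 20 and 4 weeks and 0 at all 4 ages. With the scanner's signals the counts were 27 at 10 days (10 higher, 17 lower), 21 at 4 weeks, 28 at 12 weeks, 25 at 20 weeks (12 higher, 13 lower), 10 in the mean, 34 between 20 weeks and 10 days (18 higher, 16 lower) and 5 at all 4 ages. In the deposited table they were 21 at 10 days, 20 at 12 weeks, 6 in the mean and 30 between 20 weeks and 10 days, over 126 members. An offset of 16 gave 4 in the mean and 17 between 20 weeks and 10 days, and leaving out 20 week replicates 5 and 6 gave 18 there. Of 71 called single results, 30 kept their call under median centring, 38 lost it and 3 changed sign: Neu1 A_52_P58524 at 12 weeks (0.012), and Tubb5 A_52_P163795 (-0.23) and H2-T22 A_51_P432538 (-0.084) between 20 weeks and 10 days. In the deposited table, and likewise with the scanner's signals, calls were kept by 69, and those of Gabbr1 at 4 weeks and of Hspa1l between 20 and 4 weeks were lost. With the replicate number as a block, the counts were 8, 10, 8 and 13 at the 4 ages, 2 in the mean, 11 and 19 between ages, and 109 by the F test, and all 71 kept their call. Same-numbered mice correlated between -0.40 and 0.62 (median -0.10), and 3 of 24 arrays correlated best with their own number, so the numbers give no pairing. With slide as a random block 69 kept their call, while Ppp1r18 at 20 weeks read 0.995 and Hspa1l between 20 and 4 weeks -0.991. On the slides that held 2 ages, 127 of 147 members kept the sign of 4 weeks minus 10 days and 111 that of 20 weeks minus 12 weeks. Such a slide held 2 arrays of each age, which are also part of the differences over all mice. The 2 signs are therefore not independent. By its construction the offset of 50 draws the ratios of dim probes, such as the minus-strand Neu1 probe, towards 0.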
